A study of Homo sapiens with 6 samples.

Results

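The 10 genes described here serve iron uptake, haem synthesis in mitochondria, and iron storage, sensing and export in K562 cells. They were taken by symbol: TFRC, SLC11A2 and STEAP3 for uptake, SLC25A37 and SLC25A38 for mitochondrial import (of iron and of glycine), FTH1 and FTL for storage, ACO1 and IREB2 for sensing, and SLC40A1 for export. All 10 were found among the 26485 gene symbols of the count tables and among the 28069 genes of the estimated count tables. The RNA came from 6 libraries of K562 cells, a line long grown in culture that was first taken from chronic myeloid leukaemia. Of these, 2 carried the control guide sgNeg2 and are labelled WT, 2 carried sgRNA#1 against ZNF410 and 2 carried sgRNA#2 against ZNF410, and the last 4 are labelled as knockout. Each group holds replicates numbered 1 and 2, and the labels name no drug, time point, clone or separate culture, so the p-values below measure only the spread between these libraries, which may be technical. ZNF410 is a zinc finger transcription factor known to act through CHD4, a subunit of a chromatin remodelling complex.

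Cells take up transferrin-bound iron through the transferrin receptor (TFRC), reduce it in the endosome (STEAP3), move it to the cytosol (SLC11A2) and either store it in ferritin (FTH1, FTL), pass it to mitochondria for haem and iron-sulphur clusters, or export it through ferroportin (SLC40A1). When iron is scarce the iron regulatory proteins, ACO1 and IREB2, bind iron-responsive elements, which are short RNA hairpins: a hairpin in the 5′ UTR blocks translation, and hairpins in the 3′ UTR of TFRC protect the mRNA from decay. Red cell precursors, which K562 cells resemble in part, need large amounts of iron for haem.

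The hairpins are shown first because they divide the members whose mRNA level is itself under iron control (TFRC) from those controlled mainly at translation (the ferritins and SLC40A1). A search of GENCODE 29 transcripts (GRCh38) for a window of 29 bases with the loop CAGTGN, 5 bases on each side of the loop that pair with each other, with at most 1 G:U pair, and a C just before them (the bulge), with pairing of the outer bases not required, found the elements below. Each is written as the DNA letters of the transcript strand, 5′ to 3′, and the loop is in capitals.
FTH1 5′ UTR, chr11:61967574-61967602, minus strand: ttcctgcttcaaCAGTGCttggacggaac
FTL 5′ UTR, chr19:48965335-48965363, plus strand: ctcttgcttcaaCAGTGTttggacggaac
SLC40A1 5′ UTR, chr2:189580661-189580689, minus strand: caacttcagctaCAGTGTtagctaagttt
TFRC 3′ UTR, chr3:196050979-196051007, minus strand: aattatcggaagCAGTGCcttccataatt
TFRC 3′ UTR, chr3:196050575-196050603, minus strand: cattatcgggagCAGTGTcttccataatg
TFRC 3′ UTR, chr3:196050510-196050538, minus strand: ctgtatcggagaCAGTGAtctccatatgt
TFRC 3′ UTR, chr3:196050463-196050491, minus strand: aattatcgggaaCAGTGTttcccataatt
The search met 4 elements in TFRC and a single element in each of the other 3 genes. Over all coding genes, 164 of 19702 (0.832%) had a match. Of 9 genes known for such an element, described further on, 6 had a match: these 4 with ALAS2 and CDC14A. SLC11A2, EPAS1 and CDC42BPA had none by this rule. A match says that these letters are present and does not show binding, and a missing match says only that they are not in these transcripts.

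Whole-number counts summed over genes to between 8788816 and 9537470 per library, so depth was similar in the 6 libraries. The targeted gene was lower in the knockout libraries, at 38.2 and 34.0 CPM (counts scaled to library size) of ZNF410 in the control libraries and 17.0 to 24.5 in the 4 others. CHD4 was 590 and 666 CPM in the control libraries and 284 to 326 in the knockout libraries. The replicate numbers separated the libraries more than the genotype did: 5529 of 12282 genes tested (45.0%) differed between replicate 2 and replicate 1, and 0 genes (0%) differed between knockout and control without the number in the model. With the number as a block, 226 genes (1.84%) differed between knockout and control, 109 (0.887%) with sgRNA#1 and 170 (1.38%) with sgRNA#2. Without the block edgeR called 0 genes in each of these 3 comparisons, with 284, 120 and 141 genes at an unadjusted p under 0.05, and DESeq2 called 19, 6 and 4. What the replicate number stands for is not given by the labels.

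Ferritin light chain was the most abundant member and SLC11A2 the least. Levels between genes are compared in TPM, which the authors normalized for transcript length. FTL, the light subunit that helps iron mineralize in the ferritin shell, had a median of 8756 TPM over the 6 libraries, with a range from 6953 to 10117, and ranked 6 among all genes. FTH1, the heavy subunit with the ferroxidase activity, had a median of 3089 TPM and ranked 58. TFRC had a median of 608 TPM and ranked 190. The ranges of these 3 genes did not overlap. The other 7 members lay far lower, at medians of 59.7 TPM for SLC25A38, 42.1 for IREB2, 32.8 for SLC40A1, 27.5 for ACO1, 23.1 for STEAP3, 21.5 for SLC25A37 and 18.4 for SLC11A2. Neighbours in that lower order overlapped in range, from SLC25A38 and IREB2 (48.5 to 64.8 and 35.0 to 52.1 TPM) down to SLC25A37 and SLC11A2 (18.0 to 30.1 and 13.1 to 23.1 TPM), except that IREB2 lay wholly above SLC40A1 (29.7 to 34.4 TPM).

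**Figure D1:**
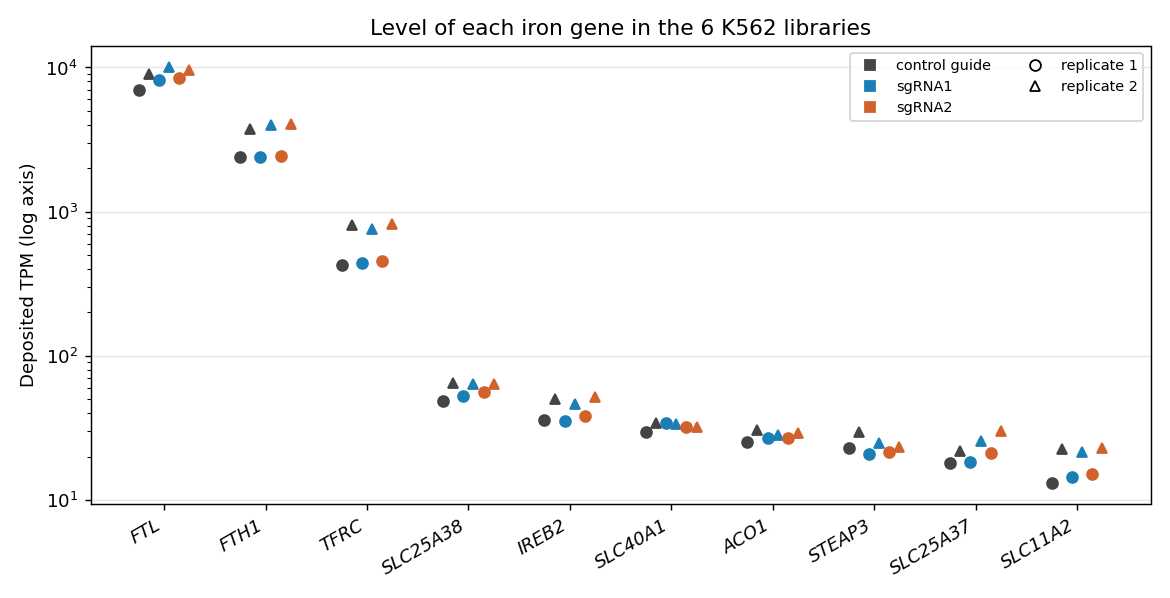
Deposited TPM (log axis) of the 10 genes, ordered by their median, with colour for the guide and shape for the replicate number. FTL, FTH1 and TFRC, with medians of 8756, 3089 and 608 TPM, stand apart from the other 7 genes, and replicate 2 (triangles) lies above replicate 1 (circles) for TFRC and FTH1 with every guide.

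No member passed the test for a ZNF410 knockout difference, and 6 of 10 were higher in replicate 2 than in replicate 1. For knockout against control the members' log2 fold changes with the replicate block ran from -0.13 to 0.21 with a median of 0.033, beside a median of 0.004 over all genes tested. Beside the 1.84% of all genes called in that comparison, 0 of 10 members is a share near the background. For replicate 2 against replicate 1, 6 of 10 members were called higher and 0 lower, where 21.6% of all genes were called higher. All 10 members passed the filter on low counts. Members' median log2 difference between the numbers was 0.23, beside -0.004 over all genes.

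TFRC, the transferrin receptor (chr3:196027183-196082189, minus strand), was set apart by replicate number and not by guide. With the control guide it measured 1629 CPM in replicate 1 and 2688 CPM in replicate 2, then 1666 and 2724 with sgRNA#1, and 1625 and 2799 with sgRNA#2. All 3 replicate 2 libraries lay above all 3 replicate 1 libraries, and the knockout and control values overlapped. TFRC was 1.67-fold higher in replicate 2 (log2 0.74, SE 0.0399, edgeR adjusted p = 6.68e-09), by 0.72, 0.71 and 0.78 log2 units with the control guide, sgRNA#1 and sgRNA#2. Knockout minus control of the same number was 0.03, 0.02, -0.003 and 0.06 in the 4 pairs. The fitted knockout ratio with the block was 1.02 with a 95% interval of 0.960 to 1.08 (edgeR adjusted p = 0.840). The interval bounds the size of a change and does not show that none occurred.

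SLC11A2 (DMT1, chr12:50979401-51028566, minus strand), the transporter that moves ferrous iron out of the endosome, had the same split as TFRC. It measured 41.5 and 57.1 CPM in the control libraries (replicates 1 and 2), 40.3 and 59.5 with sgRNA#1, and 41.7 and 58.1 with sgRNA#2. The numbers did not overlap and the genotypes did. Replicate 2 was 1.41-fold higher (log2 0.50, SE 0.0745, edgeR adjusted p = 9.37e-05). The knockout ratio was 1.01 (95% interval 0.905 to 1.13).

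STEAP3 (chr2:119223831-119265652, plus strand), the endosomal ferrireductase, was the uptake gene without a called difference between the numbers. It measured 67.1 and 79.4 CPM in the control libraries, 65.8 and 70.8 with sgRNA#1 and 65.0 and 66.3 with sgRNA#2. It was lower in the knockout library of each of the 4 pairs, by 0.03 to 0.26 log2 units, without passing the test (log2 -0.13, SE 0.0696, edgeR adjusted p = 0.479 with the block). The blocked value was -0.195 in the estimated counts and -0.037 without control replicate 2, so its size rests largely on that library. The fitted log2 difference of replicate 2 from replicate 1 was 0.13 (edgeR adjusted p = 0.148), and in the estimated counts it passed at 0.17 (edgeR adjusted p = 0.0250). An antisense gene, STEAP3-AS1, shares 11.0% of the exon bases of STEAP3, and the strand setting of the counting is not given in the sources used here. The STEAP3 count may therefore have gained or lost reads in those bases.

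SLC25A37 (mitoferrin 1, chr8:23528805-23575463, plus strand), which imports iron into the mitochondria of developing red cells, had the widest spread over the 4 pairs. It measured 68.9 and 64.2 CPM in the control libraries, 65.8 and 79.8 with sgRNA#1, and 72.2 and 91.5 with sgRNA#2. Both knockout values of replicate 2 and that of sgRNA#2 replicate 1 were above both control values, and sgRNA#1 replicate 1 lay between the controls. Knockout minus control was -0.07 and 0.07 log2 units in replicate 1 and 0.32 and 0.51 in replicate 2, for sgRNA#1 and sgRNA#2. The blocked knockout ratio was 1.16 (95% interval 1.01 to 1.33, edgeR adjusted p = 0.341). The test of whether the knockout difference depends on the number gave a log2 difference of 0.41 (SE 0.145, edgeR adjusted p = 0.387), and 0.244% of all genes were called there against 0 of 10 members. Without control replicate 1, with the block, SLC25A37 was called with each guide, at log2 0.32 (adjusted p = 0.0499) with sgRNA#1 and 0.49 (adjusted p = 8.13e-05) with sgRNA#2, and not for both guides together, at 0.41 (adjusted p = 0.0740). That fit sets the guides against control replicate 2 alone, which is assumed to vary like the other groups, and it is no replicated check. Without control replicate 2 the blocked values were 0.004 (edgeR adjusted p = 0.994) for knockout against control and 0.085 (adjusted p = 0.732) with sgRNA#2, so the difference rests on that library. Between the numbers its log2 difference was 0.18 (edgeR adjusted p = 0.0886), with opposite signs in the control guide (-0.10) and in sgRNA#1 and sgRNA#2 (0.28 and 0.34). It passed at 0.34 in the estimated counts (edgeR adjusted p = 0.000805), and 7 of 15 settings called it. Without either control library the value was 0.31, but these fits rest on the sgRNA#1 and sgRNA#2 pairs alone. They leave out the control pair of opposite sign and add no separate support.

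SLC25A38 (chr3:39383324-39397351, plus strand), the mitochondrial glycine carrier whose loss causes sideroblastic anaemia, measured 67.7 and 87.0 CPM in the control libraries, 76.2 and 92.3 with sgRNA#1, and 73.1 and 81.8 with sgRNA#2. The lowest replicate 2 value lay above the highest replicate 1 value. Replicate 2 was 1.20-fold higher (log2 0.27, SE 0.0649, edgeR adjusted p = 0.00400). The knockout difference was positive in 3 of 4 pairs, and the blocked ratio was 1.05 (95% interval 0.943 to 1.16).

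**Figure D2:**
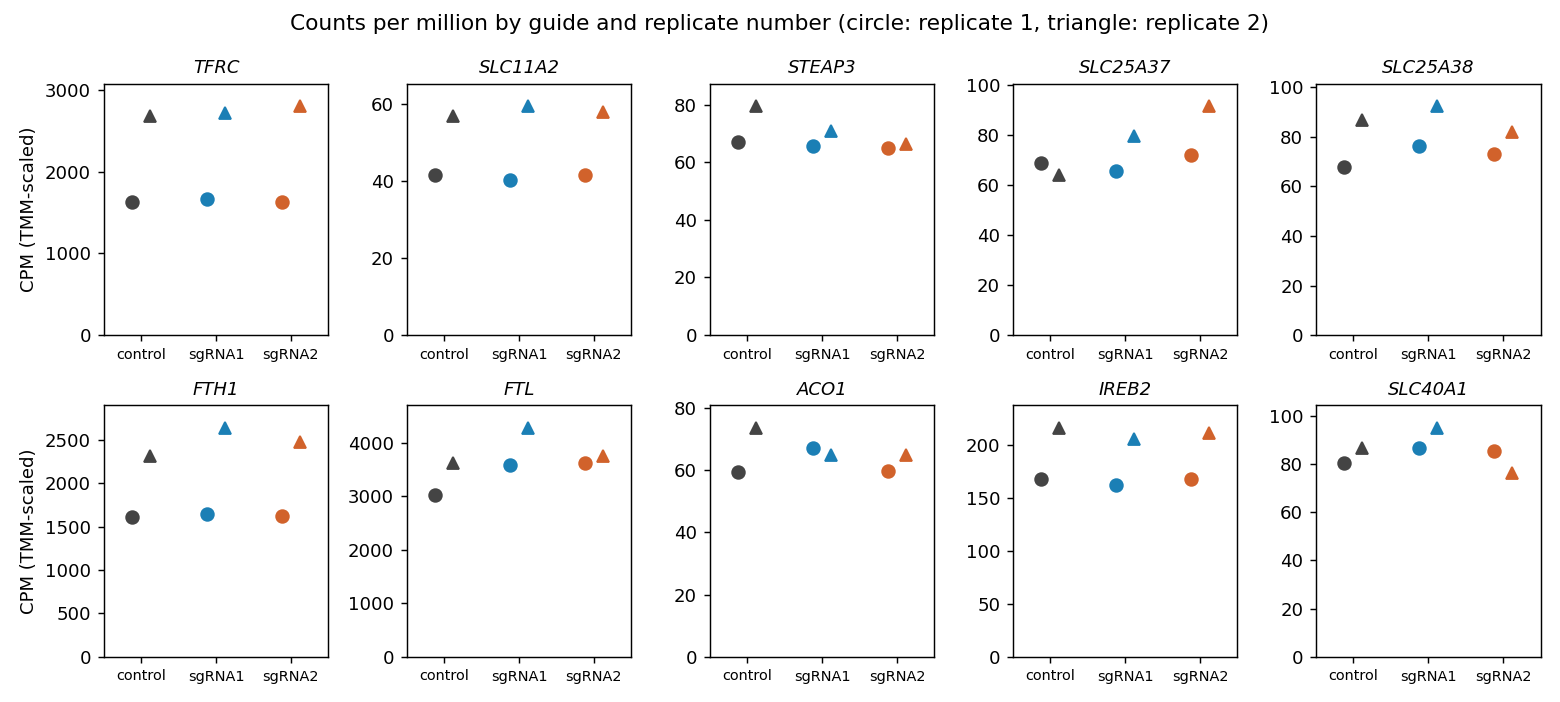
CPM after TMM scaling for each gene, with axes from 0; colour marks the guide, circles replicate 1 and triangles replicate 2. In TFRC, SLC11A2, SLC25A38, FTH1, FTL and IREB2 every triangle lies above every circle, whereas the 4 knockout values overlap the control values in all 10 panels.

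FTH1 (ferritin heavy chain, chr11:61959718-61967660, minus strand) followed TFRC in the size of its difference between the numbers. It measured 1615 and 2320 CPM in the control libraries, 1647 and 2635 with sgRNA#1, and 1623 and 2481 with sgRNA#2. The 3 replicate 1 values lay close together and below all 3 of replicate 2. FTH1 was 1.52-fold higher in replicate 2 (log2 0.60, SE 0.0426, edgeR adjusted p = 8.31e-08). It was higher in the knockout library of all 4 pairs, by 0.008 to 0.18 log2 units, and did not pass the test (ratio 1.06, 95% interval 0.989 to 1.13, edgeR adjusted p = 0.496 with the block). BEST1 on the opposite strand shares 62.4% of the FTH1 exon bases, and BEST1 itself had 5 to 17 counts per library beside 14000 to 25135 for FTH1. GENCODE lists 25 pseudogenes named after FTH1, of which 2 were in the count table with 11 counts in all, so reads that fit several copies may have been lost from the FTH1 count. The same limit holds for FTL, with 16 pseudogenes, of which 1 was in the count table with 0 counts. Whole-number counts were 0.507 of the estimated counts for FTH1 and 0.528 for FTL, beside a median of 0.548 over 9325 genes.

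FTL (ferritin light chain, chr19:48965301-48966878, plus strand) came nearest to a knockout difference. It measured 3026 and 3621 CPM in the control libraries, 3577 and 4267 with sgRNA#1, and 3613 and 3755 with sgRNA#2. Each knockout library was above the control of its own number, while control replicate 2 lay above the replicate 1 libraries of both knockout guides. Knockout minus control was 0.24 and 0.24 log2 units with sgRNA#1 and 0.26 and 0.05 with sgRNA#2, for replicates 1 and 2. The blocked knockout ratio was 1.15 (95% interval 1.07 to 1.23, log2 0.20, SE 0.0494), with an edgeR adjusted p of 0.0574, just over the threshold of 0.05. It passed with the block in the estimated counts (adjusted p = 0.0312), in the DESeq2 Wald test with the block (adjusted p = 0.0338) and without sgRNA#2 replicate 2 (adjusted p = 0.00297). These were the only 3 of 14 blocked fits that called FTL for knockout against control. Without the block the edgeR ratio was 1.14 (95% interval 0.957 to 1.37), and 0 of 11 such fits called FTL. For the guides apart, the blocked ratio was 1.18 with sgRNA#1 (edgeR adjusted p = 0.0611) and 1.11 with sgRNA#2 (edgeR adjusted p = 0.238), which share their control libraries. With sgRNA#1 and the block, FTL passed without control replicate 1 (adjusted p = 0.0493), control replicate 2 (2.27e-05), sgRNA#2 replicate 1 (0.00576) or sgRNA#2 replicate 2 (0.0191), and with sgRNA#2 it passed without control replicate 2 (0.00612). The fits without a control library rest on 1 control library, assumed to vary like the other groups, so their calls add no support. The difference between the guides was -0.08 log2 units (edgeR adjusted p = 0.999), and 0.0896% of all genes were called there against 0 of 10 members.

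Between the numbers, FTL rose 1.14-fold in replicate 2 (log2 0.19, SE 0.0449, edgeR adjusted p = 0.00330), less than FTH1. Its call rests partly on sgRNA#1 replicate 1, without which the adjusted p was 0.0649. The ratio of FTH1 to FTL in TPM was 0.307 ± 0.0301 in the replicate 1 libraries and 0.412 ± 0.0132 in the replicate 2 libraries (SD, n = 3). The ranges, 0.286 to 0.342 and 0.397 to 0.422, did not overlap. TFRC to FTH1, a ratio of the uptake receptor to the storage subunit, was 0.183 ± 0.00383 and 0.203 ± 0.0124 (SD, n = 3), with values of 0.179, 0.184 and 0.187 in replicate 1 and 0.190, 0.204 and 0.215 in replicate 2, which do not overlap either. Scarce iron is known to stabilize TFRC mRNA and to block ferritin translation, and here the mRNA levels of TFRC and FTH1 were both higher in replicate 2. These ratios were not tested.

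ACO1 (IRP1, chr9:32384603-32454769, plus strand), an iron regulatory protein that also acts as cytosolic aconitase when it holds an iron-sulphur cluster, passed the test in neither comparison. It measured 59.5 and 73.4 CPM in the control libraries, 67.0 and 64.7 with sgRNA#1, and 59.8 and 64.9 with sgRNA#2. Guides and numbers overlapped. Its log2 difference between the numbers was 0.12 (edgeR adjusted p = 0.205) and its knockout ratio was 0.966 (95% interval 0.859 to 1.09).

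IREB2 (IRP2, chr15:78437431-78501456, plus strand), the iron regulatory protein that is degraded when iron is plentiful, was higher in replicate 2. It measured 168 and 216 CPM in the control libraries, 163 and 206 with sgRNA#1, and 168 and 211 with sgRNA#2. The numbers did not overlap, and the 3 differences between them were 0.33 to 0.36 log2 units. Replicate 2 was 1.27-fold higher (log2 0.34, SE 0.0511, edgeR adjusted p = 9.10e-05). The knockout library was lower in each of the 4 pairs, by 0.008 to 0.07 log2 units, and the ratio of 0.972 had a 95% interval of 0.898 to 1.05. In TPM, IREB2 exceeded ACO1 by a ratio of 1.296 to 1.799 in the 6 libraries.

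SLC40A1 (ferroportin, chr2:189560579-189583758, minus strand), the only known cellular iron exporter, had the smallest difference between the numbers. It measured 80.4 and 86.4 CPM in the control libraries, 86.7 and 94.8 with sgRNA#1, and 85.2 and 76.1 with sgRNA#2. The number difference had opposite signs in sgRNA#2 (-0.16) and the other guides (0.10 and 0.13), and the fitted value was 0.02 (edgeR adjusted p = 0.794). The knockout ratio was 1.03 (95% interval 0.911 to 1.16).

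**Figure D3:**
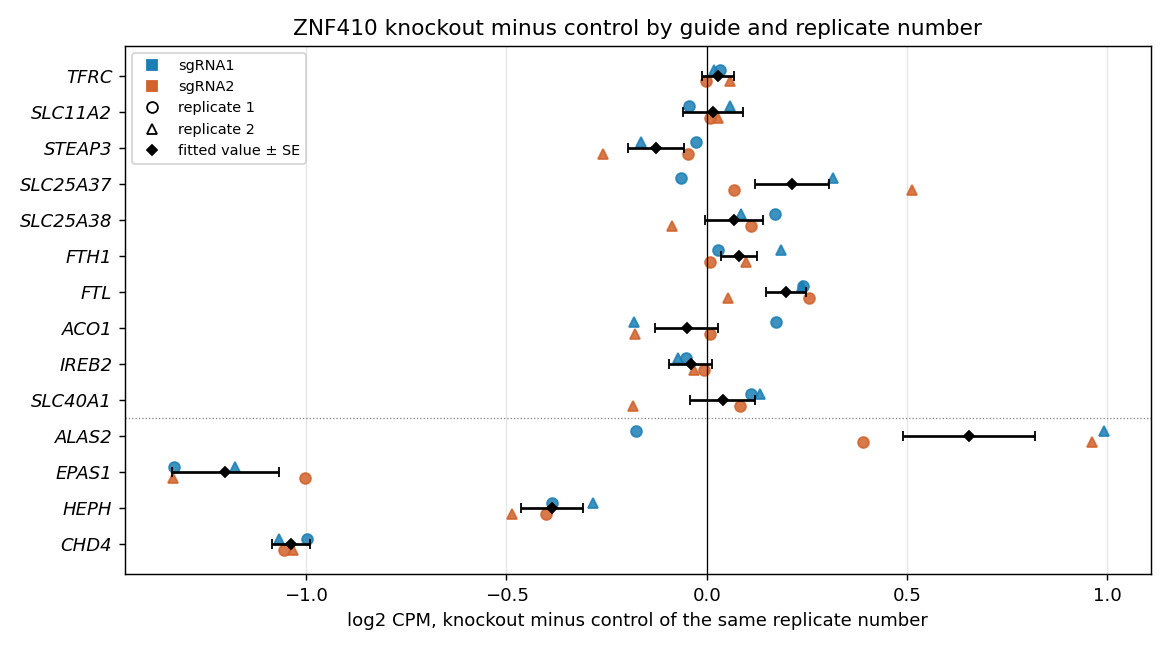
Log2 CPM of each knockout library minus the control library of the same number, with the fitted value and SE of the fit with the replicate block (diamonds); the genes under the dotted line are not members. The 10 members lie between -0.26 and 0.51, FTL is above 0 in all 4 pairs, and EPAS1 and CHD4 lie near or below -1.

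Genes known from earlier work for an iron-responsive element were set beside the members. The list of 9 held TFRC, SLC11A2, FTH1, FTL and SLC40A1 with ALAS2, EPAS1, CDC14A and CDC42BPA. For knockout against control with the block, 1 of 9 was lower and 0 were higher, where 0.651% of all genes were called lower and 1.19% higher. The gene was EPAS1, which had no match in the hairpin search and which encodes HIF-2 alpha, a factor of the response to low oxygen. EPAS1 measured 27.1 and 23.0 CPM in the control libraries and 9.13 to 13.5 in the knockout libraries, which do not overlap, with a log2 fold change of -1.20 (SE 0.134, edgeR adjusted p = 0.000175). None of the 5 members in this list was called in that comparison. ALAS2, the haem synthesis enzyme of red cells, measured 15.7 and 35.0 CPM in the control libraries, 13.9 and 69.6 with sgRNA#1 and 20.5 and 68.3 with sgRNA#2. Its blocked knockout log2 fold change was 0.66 (SE 0.165, edgeR adjusted p = 0.0594, and 0.0184 in the estimated counts).

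Between the numbers, 5 of the 9 genes of this list were higher in replicate 2 and 0 were lower, where 21.6% of all genes were called higher and 23.5% lower. They were the members TFRC, SLC11A2, FTH1 and FTL, described above, and ALAS2. The largest difference was that of ALAS2, 3.38-fold (log2 1.76, SE 0.152, edgeR adjusted p = 5.80e-07). EPAS1, CDC14A and CDC42BPA, also outside the members, were not called. The list's count and median therefore largely repeat the members' result. By position, 3 of 5 genes known for a 5′ element and 2 of 4 known for a 3′ element were called, all higher, and these counts are too small to set against the 21.6% of all genes. The list's median log2 difference was 0.19, beside -0.004 over all genes.

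**Figure D4:**
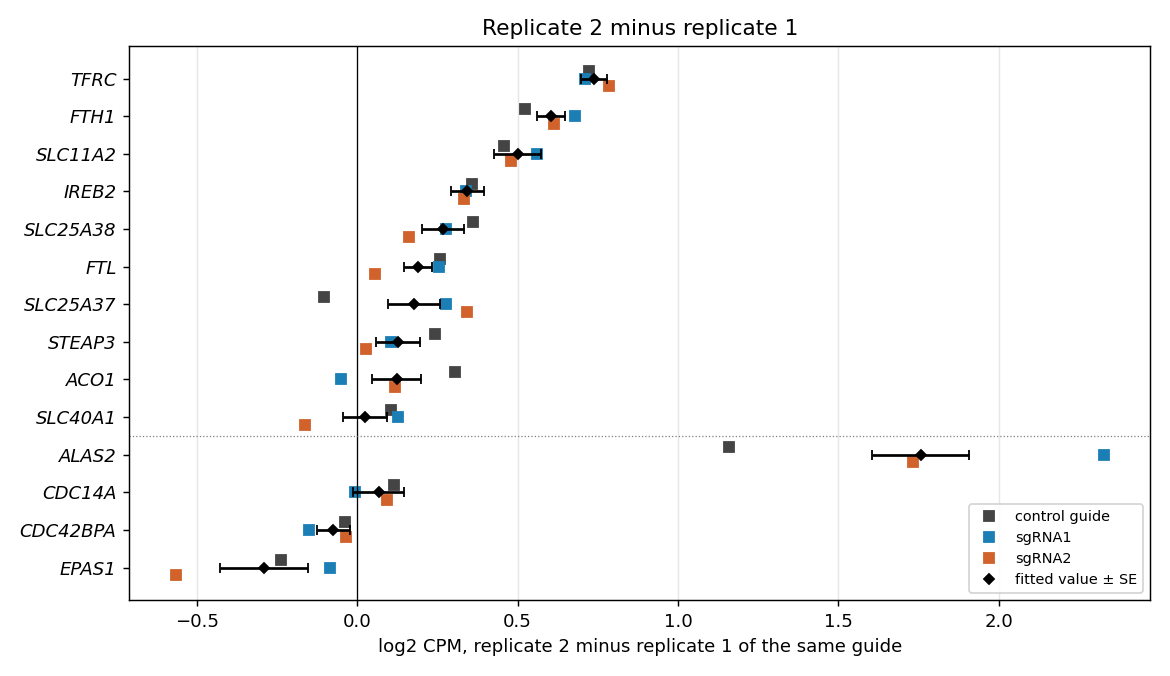
Log2 CPM of replicate 2 minus replicate 1 within each guide (squares), with the fitted value and SE (diamonds); members are above the dotted line and the other genes known for an iron-responsive element below it. TFRC, FTH1, SLC11A2 and IREB2 have all 3 squares at 0.33 or more, while SLC40A1, ACO1 and SLC25A37 have squares on both sides of 0.

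The wider iron pathway was called in both directions between the numbers, as were all genes. Of 48 other genes of iron transport, cytosolic handling and iron-sulphur cluster assembly, 40 passed the filter. Between the numbers 11 were higher and 6 lower in replicate 2, where 21.6% of all genes were called higher and 23.5% lower, and the median log2 difference was -0.01, near that of all genes. These counts say nothing particular to the pathway. Among the higher genes were ABCB10, an inner mitochondrial membrane transporter that binds mitoferrin 1 (log2 0.59, edgeR adjusted p = 2.18e-06), SLC39A8, a metal importer of the cell surface (0.59, adjusted p = 7.04e-05), NCOA4, the receptor that delivers ferritin to the lysosome (0.33, adjusted p = 9.12e-05), and IBA57, an iron-sulphur assembly factor (0.69, adjusted p = 0.000121). Among the lower genes were FDXR, the reductase that feeds electrons to cluster assembly (-0.90, adjusted p = 2.11e-07), and PCBP1, a cytosolic iron chaperone that loads ferritin (-0.29, adjusted p = 0.000220). TFR2, the second transferrin receptor, differed by 0.03 (adjusted p = 0.713), so the TPM ratio of TFRC to TFR2 was 10.5 to 13.0 in replicate 1 and 19.3 to 21.4 in replicate 2.

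For knockout against control with the block, 2 of these 40 genes were lower and 0 higher, where 0.651% of all genes were called lower. HEPH, the membrane copper ferroxidase that works with ferroportin, measured 62.9 and 57.8 CPM in the control libraries and 41.3 to 48.1 in the knockout libraries, which do not overlap (log2 -0.39, SE 0.0775, edgeR adjusted p = 0.0175, and 0.00646 in the estimated counts). With sgRNA#1 alone and the block HEPH was not called, as 0 of the 8 cell surface and endosome genes tested were. With sgRNA#2 alone 1 of those 8 was called lower. HMOX2, a haem oxygenase, is called on 1 library: it had 271 counts in control replicate 2 and 14 to 23 in the other 5 libraries. The same library bears on its call as higher in replicate 2 (log2 1.66, edgeR adjusted p = 0.0468), which was 0.07 in the estimated counts (adjusted p = 0.281). In the estimated counts its blocked log2 fold change was -0.15 (edgeR adjusted p = 0.234), and its deposited TPM was 82.1 in control replicate 2 and 65.7 to 70.5 in the rest.

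**Figure D5:**
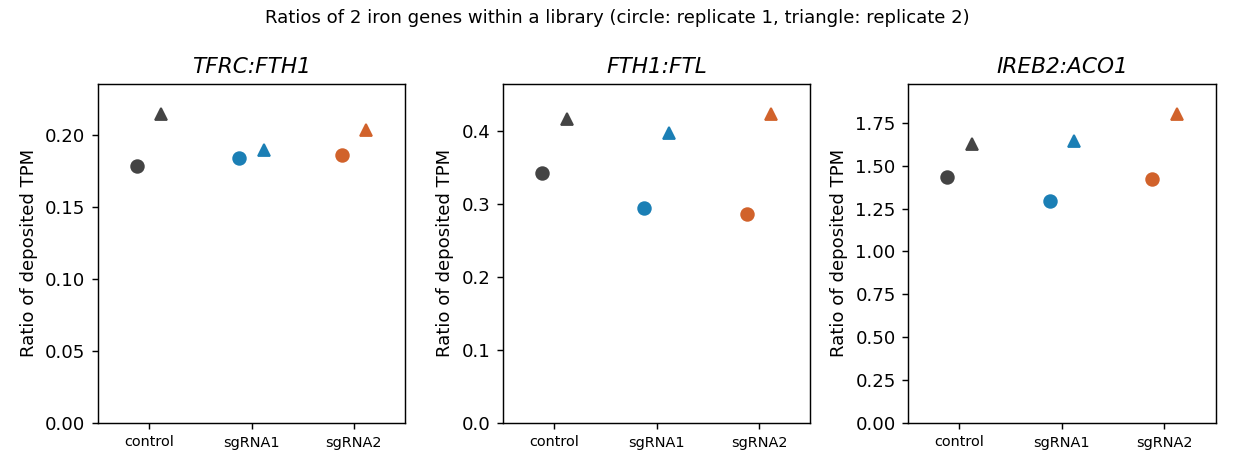
Ratios of deposited TPM between 2 members in each library, with axes from 0; colour marks the guide, circles replicate 1 and triangles replicate 2. The FTH1 to FTL ratio is 0.286 to 0.342 in replicate 1 and 0.397 to 0.422 in replicate 2, and in each ratio the 4 knockout values overlap the control values.

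Erythroid marker genes moved with the replicate number too. Of 11 markers, 9 were called higher in replicate 2 and 2 (GATA1 and NFE2) lower, where 21.6% of all genes were called higher and 23.5% lower. Their median log2 difference was 1.03, and their summed level was 2106 to 2557 CPM in replicate 1 and 3822 to 5371 CPM in replicate 2. Most of that sum is the globin genes HBG2, HBE1 and HBZ (1196 to 1565 and 2867 to 4318 CPM), and the sum of the other 8 markers, 910.1 to 991.7 and 954.3 to 1055 CPM, overlapped between the numbers. Within each guide the sum of those 8 was higher in replicate 2, at 910.1 and 954.3 CPM with the control guide, 966.5 and 1053 with sgRNA#1, and 991.7 and 1055 with sgRNA#2. With the block, 4 of the 11 (the 3 globins and GYPB) were higher in the knockout libraries, where 1.19% of all genes were called higher, and the sum was 2106 and 3822 CPM in the control libraries and 2426 to 5371 in the knockout libraries, of which the 3 globins gave 1196 and 2867 CPM and 1460 to 4318 CPM. The sum of the other 8 markers was 910.1 and 954.3 CPM in the control libraries and 966.5 to 1055 CPM in the knockout libraries, which do not overlap. These sums were not tested, nor was the part of the erythroid markers in the members' differences, and in bulk RNA fewer cells of a type and less RNA per cell cannot be told apart. Of 8 megakaryocyte markers, GP9, PF4 and VWF were at 0 in all libraries in the whole-number counts, which the markers at 0 below also refer to (in TPM, GP9 reached 0.4, VWF 0.03 and MS4A1 0.02), and the sum was 31.3 to 38.5 CPM in replicate 1 and 6.01 to 9.78 CPM in replicate 2. That fall is of ITGA2B (28.7 to 36.1 and 2.95 to 6.09 CPM), while ITGB3, at 3 to 19 counts, was higher in replicate 2 with every guide and GP1BA differed by log2 0.14 (edgeR adjusted p = 0.767). Of 8 granulocyte and monocyte markers ELANE and S100A8 were at 0, and the sum was 13.6 to 20.6 and 4.12 to 6.50 CPM, most of it LYZ (11.7 to 17.2 and 2.53 to 3.70 CPM). Of 6 lymphocyte markers MS4A1 and IL7R were at 0, and the sum was 13.3 to 21.5 and 3.57 to 5.33 CPM, where the fall is mostly that of CD3D (9.62 to 17.8 and 1.74 to 3.80 CPM). Of 6 fibroblast and epithelial markers DCN was at 0, and the sum, 792 to 862 and 550.0 to 612 CPM, was also lower in replicate 2. That fall is of KRT8 (392 to 434 and 252 to 289 CPM) and KRT18 (297 to 330 and 203 to 218 CPM), while EPCAM differed by log2 -0.06 (edgeR adjusted p = 0.457). COL1A1, with 0 and 1 counts in the control libraries and 8 to 14 in the knockout libraries, was called higher in the knockout with the block (edgeR adjusted p = 0.0273).

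The genes most like each member over the 6 libraries were found by the root mean square difference of their centred log2 CPM, among the 9966 genes whose mean reached 50 counts. TFRC was nearest to PLA2G12A (0.038), SFXN5 (0.043) and SPATA9 (0.044). FTH1 was nearest to SNHG10 (0.040), SVIP (0.042) and BNIP3L (0.042), FTL to LOC100130093 (0.015), USP11 (0.025) and TYW1B (0.030), and SLC11A2 to PEPD (0.011), EIF2B1 (0.017) and LINC00667 (0.022). IREB2 was nearest to CPSF6 (0.016) and SLC25A37 to SERTAD2 (0.047). No member was among the 3 nearest genes of another member. These distances are descriptions over 6 libraries that share 3 guides and 2 numbers.

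Promoters of 300 bases, 12 in all, were given by RefSeq (GRCh38.p14) for 8 of the 10 members. FTH1 and SLC25A37 had no promoter sequence there and were not searched. A gene was counted where any of its promoters held the letters on either strand. ACGTG, the core of hypoxia response elements, was in 3 of these 8 genes (TFRC, FTL and SLC25A38) and in 24.9% of all 27305 genes with a promoter. The GATA letters AGATAA were in SLC11A2 only (12.4% of all genes) and TGATAA in 0 members (9.22%). The antioxidant response letters TGACNNNGC were in 0 members (16.1%), as was CCCATAATA, the core of the sequence that ZNF410 binds (0.106%). A match is not a site of binding, and a missing match says only that these letters are not in these windows.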

How the data were processed

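RNA of 6 K562 libraries was analysed from deposited tables. Per the submitters' processing notes the tools were Trim Galore, HISAT2 2.2.1, SAMtools 1.9, HTSeq 0.6.1, RSEM 1.3.2 and DESeq2 1.36.0, with build hg38. The first table held whole-number counts per symbol as deposited, with 5 rows of reads given to no gene (61.6% to 62.6% of each total), which stayed out of all fits. The second held, per the file headers, an estimated count per gene, made by the authors, and TPM and FPKM values, which the authors normalized for length and depth. Members' whole-number counts were 0.487 to 0.615 of their estimated counts, beside a median of 0.548 over 9325 genes.

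Tests used the edgeR 4.0.16 quasi-likelihood F-test (R 4.3.3) on the counts, with TMM and filterByExpr (12282 genes). Calls needed a Benjamini-Hochberg adjusted p under 0.05 over all genes tested. The groups share replicate numbers, whose meaning the labels leave unstated. Same-numbered libraries deviated together from their group means (r = 0.810, 0.757 and 0.823 over 9966 genes), so the libraries were treated as paired by number. Counts over all genes are given from fits with and without a replicate block. Members' knockout ratios, intervals and adjusted p-values are from the blocked fits unless stated, although the fit without the block was planned as the main one. Without the block 0 of 10 members were called, and each interval was wider, for example 0.619 to 1.68 for the TFRC ratio. Replicate 2 was compared with replicate 1 with the group in the model. CPM values are scaled by TMM, SE is the log2 fold change over the square root of F, and intervals are 95% and unadjusted. The procedure was tested on simulated data. Other settings were estimated counts rounded to whole numbers, DESeq2 1.42.0, limma 3.58.1 on log2(FPKM + 1), no filter and leaving out each library.

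Named were all 10 members and, from the other lists, up to 6 called genes with the smallest p, plus EPAS1, CHD4 and ZNF410. TFR2, HEPH, HMOX2, GATA1, NFE2, ITGA2B, ITGB3, GP1BA, LYZ, CD3D, HBG2, HBE1, HBZ, GYPB, KRT8, KRT18, EPCAM, COL1A1 and the markers at 0 were named after their values were seen. The members and lists were chosen with earlier results of these data known. Coordinates are GRCh38 (GENCODE 29). Hairpins came from GENCODE transcripts and promoters from RefSeq (GRCh38.p14). One item of the list of genes with an iron-responsive element and one of the erythroid markers are not reported here, and the lists' counts, sums and medians were computed without them.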

Additional observations from a re-analysis of the deposited data

Results flagged for a closer look

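In HEPH, sgRNA#2 replicate 2 (41.3 CPM) lay apart from the other 3 knockout libraries (47.5 to 48.1 CPM), with a gap of 0.912 of the range over the 4 libraries, past the 95% critical value for such a gap, which chance passes in about 1 of 20 groups. The HMOX2 knockout difference depended on the replicate number by the test of that dependence, at log2 -4.49 (SE 0.521, edgeR adjusted p = 0.000225). It rests on the 271 counts of control replicate 2, and in the estimated counts the value was -0.11 (edgeR adjusted p = 0.831).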

How the results depend on the processing

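With the replicate block in place of the fit without it, the number of members called stayed 0 of 10 for knockout against control, for each guide and between the guides. Among the blocked fits for knockout against control, 1 member, FTL, was called in the estimated counts and in the DESeq2 Wald test. For sgRNA#1 against control 1 member, FTL, was called in the blocked fits with no filter (log2 0.23), estimated counts and DESeq2. Leaving out each library in turn, blocked or not, gave 0 to 1 called members for knockout against control, 0 to 2 with sgRNA#1 and 0 to 1 with sgRNA#2. Between the numbers 5 to 8 members were called over all settings.

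Several uncalled log2 fold changes turned sign. For knockout against control by limma with the block, ACO1 became 0.003, 0.004 and 0.003 and IREB2 0.007, 0.007 and 0.007, for pseudocounts of 1 and 0.1 and no filter. With a library left out the knockout values ranged from -0.29 to 0.44 for TFRC, -0.20 to 0.27 for SLC11A2, -0.11 to 0.26 for SLC25A38, -0.15 to 0.38 for FTH1, -0.20 to 0.11 for ACO1, -0.22 to 0.15 for IREB2 and -0.025 to 0.11 for SLC40A1. These extremes, apart from those of SLC40A1, come from fits without the block, where the numbers are then unequal in the groups. Over the 14 fits with the block the values were 0.015 to 0.037 for TFRC, 0.018 to 0.135 for FTH1, -0.018 to 0.089 for SLC11A2, -0.003 to 0.14 for SLC25A38, -0.187 to 0.091 for ACO1, -0.057 to 0.007 for IREB2, -0.217 to -0.037 for STEAP3, 0.142 to 0.249 for FTL, 0.004 to 0.41 for SLC25A37 and, with sgRNA#2, 0.049 to 0.255 for FTL and 0.085 to 0.493 for SLC25A37. The lowest SLC25A37 values and the STEAP3 value nearest 0 are those without control replicate 2. SLC25A37 with sgRNA#1 ranged from -0.082 to 0.32. Between the numbers SLC40A1 became -0.016 in the estimated counts, -0.007, -0.008 and -0.007 by limma, and -0.029 to 0.12 with a library left out. FTL between the numbers missed the threshold with no group term (adjusted p = 0.0553) and by limma with no filter (0.129). The cause of these changes was not tested.

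Counts over all genes moved further. With the block, the 226 genes of knockout against control became 387 in the estimated counts and 15 by limma with no filter, and 123 without control replicate 1 and 139 without sgRNA#2 replicate 1. The 109 of sgRNA#1 became 289 with no filter, 178 in the estimated counts and 53 by DESeq2, 3 to 44 by limma, and 59 to 462 with a library left out. The 170 of sgRNA#2 became 421, 289 and 73, 1 to 94 by limma, and up to 647. The 11 between the guides became 53, 7 and 4, 0 to 3 by limma, and up to 95. Without the block DESeq2 called 19, 6 and 4 genes where edgeR called 0. The 5529 genes between the numbers became 3438 by DESeq2, and the 30 of genotype by number 14 in the estimated counts.

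Depth limits the members with low counts per library, such as SLC11A2 (360 to 567), more than TFRC or the ferritins. The blocked fit of the guides has 2 libraries per guide and 2 residual degrees of freedom, which limits its precision.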
